A study of Bos taurus with 16 samples.

Results

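The low-methylated autosomal sites are the cytosine positions on chromosomes 1 to 29 whose methylation level averaged under 15% over all 16 libraries, leaving out 3 CpG islands on chromosomes 27, 18 and 2. There were 25042 of them among 187509 autosomal positions outside these islands (13.4%), in a table of 199395 positions. The 3 islands hold 1527 positions, 434 of them under the same limit. The mean level itself chose the members, so levels are given here as a description, without a test of how low they are. Methylation level means the percent of reads at a position that were called methylated.

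The samples were endometrial cells brushed from the uterus of multiparous Holstein-Friesian cows 4 to 8 h after insemination, which took place on days 50 to 64 after calving, and profiled by reduced representation bisulfite sequencing (RRBS). RRBS cuts DNA with MspI at CCGG and sequences short fragments, which favours CpG-rich DNA. Cows received either a control diet (CON) or, from day 12 after calving, the same diet with rumen-protected methionine (MET), an amino acid form that passes the rumen and feeds the methionine cycle. Each diet was divided by whether the insemination led to pregnancy (P) or not (noP), which gave CON_P, CON_noP, MET_P and MET_noP with 4 libraries each. DNA came from more cows than there are libraries, and how many cows stand behind a library is not given. Brush samples hold several cell types, so a change of methylation within a cell and a change in the mix of cells cannot be told apart.

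In mammals most CpG positions are methylated, while CpG islands are usually kept free of methylation. Such islands mark the promoters of genes that all cells use. They also cover large parts of the genes of developmental transcription factors, where Polycomb complexes often occupy silent but unmethylated DNA. Methyl groups for DNA come from S-adenosylmethionine, which cells make from methionine.

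One property of the table bears on every value below. The authors discarded positions with a value of zero or no valid value in any library. Each low-methylated site thus shows some reads called methylated in all 16 libraries, with a minimum of 1%. The paper reports incomplete bisulfite conversion, on average, in every group, so values of a few percent need not be methylation. Positions where a library had no such read are not analysed here. The deposited values are percentages without read counts, so depth per site is unknown and no counting interval can be given. By group, the paper reports the most reads and CpG calls, on average, in MET_P and the fewest in CON_P. Depth and group therefore cannot be told apart in these comparisons. Positions are given on ARS-UCD1.2, and each gene is the one that the deposited annotation pairs with the site, without exon or intron.

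Low-methylated sites formed the lower of the peaks in the distribution of site means. The median site mean was 9.23% (quartiles 7.58% and 11.4%), and 688 sites averaged under 5%, 14399 between 5% and 10% and 9955 between 10% and 15%. Above 15% the number of sites per 5-point bin declined to 3988 between 50% and 55%, and 85580 sites (45.6%) averaged over 85%. Of 5292 sites in the table with any library under 2%, 5058 were low-methylated sites.

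**Figure D1:**
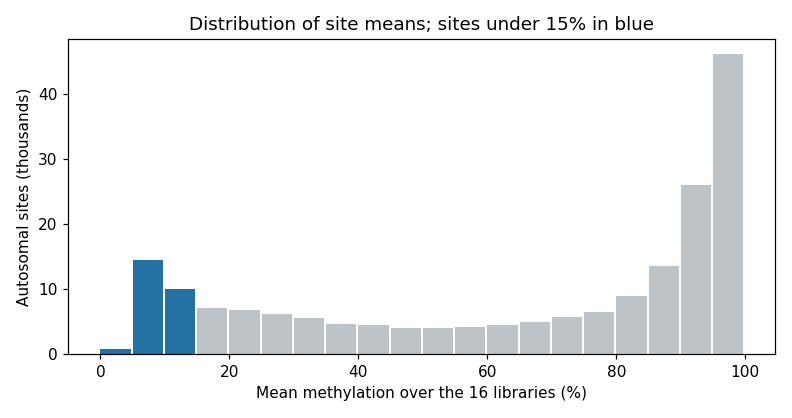
Number of autosomal sites outside the 3 CpG islands, in units of 1000 sites, by mean methylation level over the 16 libraries in bins of 5 percentage points; bins under 15%, the low-methylated sites, are blue. The blue bins hold 25042 of 187509 sites, and the highest bar, at 95% to 100%, holds 46134.

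Single libraries moved across the limit often. The standard deviation between the 16 libraries had a median of 4.31 percentage points at low-methylated sites, against 12.2 at the 16588 sites between 40% and 60% and 3.93 at the sites over 85%. The highest library of a low-methylated site had a median of 18.2%, and the lowest a median of 2.86%. Accordingly 6923 sites (27.6%) were under 15% in all libraries, 18119 reached 15% in at least 1 library, and 1590 (6.35%) exceeded 30% in at least 1.

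The limit fell in a continuous range. The sites just under it were chr26:42184524 with no gene, chr2:135039210 in ARHGEF10L and chr17:11666654 with no gene. Just over it were chr3:104579281 in HIVEP3 and chr5:110137764 with no gene. All 5 averaged 15% after rounding, and their standard deviations between libraries ran from 5.39 to 13.3 points. At the other end, the lowest site means were 2.11% at chr2:185640, which has no gene, 2.17% at chr4:7647368 in UPP1, which encodes a uridine phosphorylase, and 2.53% at chr11:48118383 in CD8A, a T-cell coreceptor.

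Low-methylated sites lay beside other low-methylated sites. When the neighbouring table position was 1 bp away, as for the opposite strand of the same CpG, it was low-methylated as well in 78.0% of cases. The share was 61.3% at 11 to 50 bp, 51.6% at over 200 and up to 500 bp and 32.6% at over 1000 and up to 5000 bp, against 13.4% of all autosomal sites. Among 25948 stretches of at least 3 table positions spaced by at most 200 bp, 1057 (4.07%) held only low-methylated sites, 22591 (87.1%) held none and 2300 (8.86%) were mixed.

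**Figure D2:**
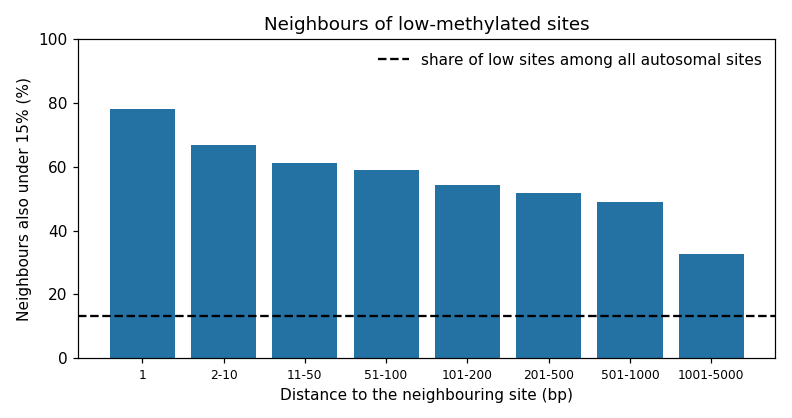
Share of the neighbouring table positions of low-methylated sites that were low-methylated too, in percent, by distance in bp. The bars decline from 78.0% at 1 bp to 32.6% at over 1000 and up to 5000 bp, and the dashed line marks the 13.4% of low-methylated sites among all autosomal sites.

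Joined wherever neighbours were at most 200 bp apart, the 25042 sites made 15301 clusters. Of these, 10610 (69.3%) were isolated sites, and 1943 clusters of at least 3 sites held 8936 sites (35.7%). Clusters of at least 10 sites numbered 114. The 10 largest clusters, with 19 to 26 sites in 242 to 655 bp, are described by gene. The largest held 26 sites at chr6:115173279-115173731 in ADRA2C, the gene of an alpha-2 adrenergic receptor, among 65 table positions. The next lay in SSPO, which encodes the brain matrix protein SCO-spondin, with 24 sites at chr4:112639517-112639912 that averaged 7.84%. The lowest of the 10 was the EVX2 cluster of 19 sites at chr2:20832133-20832787, with a mean of 7.78%. SCARF1, RNF207, TNXB and RASL10A held 23, 20, 22 and 19 sites.

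The remaining 3 of these clusters carried no gene in the table. A cluster of 24 sites at chr29:48741417-48741680 lay between the nearest annotated positions of CDKN1C, 11696 bp away, and KCNQ1, 19747 bp away, genes that are known to be imprinted. A cluster of 21 sites at chr13:54355952-54356566 lay between positions of BIRC7 and BHLHE23, and the third, with 22 sites, was at chr16:14479540-14480059. CDKN1C encodes an inhibitor of the cell cycle and KCNQ1 a potassium channel. IGF2, the imprinted fetal growth factor on the same chromosome, held 24 low-methylated sites of its own among 63.

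Cluster means varied less between libraries than their sites, which averaging over sites brings by construction. Across 619 clusters of at least 5 sites, the median standard deviation between libraries was 2.53 points, against 4.50 for the sites in them, and 309 clusters (49.9%) stayed under 15% in every library. In 99 clusters (15.99%) some library exceeded 20%, and in 65 of them exactly 1 did. MET_noP library 25 exceeded 20% in 36 clusters and CON_P library 14 in 32, while CON_noP library 28 did so in 1. The SCARF1 cluster at chr19:22746826-22747067, in a scavenger receptor gene, varied widely between libraries in every group. It stood at 28.8% in CON_P library 18 and 29.6% in MET_P library 31, while the other CON_P libraries were at 8.43%, 6.39% and 6.40%. The same cluster ranged from 4.24% to 18.7% in CON_noP and from 5.62% to 18.8% in MET_noP. In TNXB, the gene of the matrix protein tenascin X, the cluster ranged within CON_P alone from 4.61% in library 30 to 28.3% in library 14.

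By gene, 14943 low-methylated sites (59.7%) were paired with a gene, against 65.8% of the other autosomal sites. They fell in 6047 of the 10411 autosomal genes of the table (58.1%). Of these genes 3075 held 1 low-methylated site, 676 held at least 5 and 193 at least 10. The 20 genes with the most held 592 sites, or 2.36% of all, so no small group of genes made up the class.

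Transcription factor genes were frequent among those 20. Iroquois homeobox genes were represented by IRX2, with 45 low-methylated sites of 56, and IRX4, with 26 of 31. Paired box genes were PAX7, a factor of muscle stem cells, with 34 of 136, and PAX1, a factor of the embryonic skeleton, with 27 of 39. EVX2, a homeobox gene at the end of the HOXD cluster, had 30 of 33. TFAP2A, which encodes the AP-2 alpha factor, had 27 of 41, PRDM6 29 of 64, and NR5A2, a nuclear receptor that acts in steroid-producing and endometrial cells, 24 of 72.

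The others were of different kinds. The top count, 70 sites of 212, belonged to ENSBTAG00000050193 on chromosome 12, which has no symbol in the table. ADCYAP1, the gene of the neuropeptide PACAP, had 24 of 29. PTPRN2, a protein of secretory vesicles, had 25 of 784 and the sorting receptor gene SORCS3 26 of 300, so that in these long genes nearly all positions were above the limit. SSPO, ADRA2C, RNF207, EFCC1, CCDC85C, IGF2 and TNXB completed the list with 24 to 29 sites each.

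Some genes were low throughout. Of 5463 genes with at least 5 table positions, 84 (1.54%) had only low-methylated sites. LHX5, a LIM homeobox gene of the developing brain, led with 18 sites that averaged 7.86%. The homeobox genes NKX3-2 and HMX1 had 15 and 11, SOX14 had 10, and ALDH1A2, which makes retinoic acid, had 12. CA9, a carbonic anhydrase gene that responds to hypoxia, and DDX25, an RNA helicase gene of germ cells, had 11 each, and TOMM20L had 10. ENSBTAG00000051384, with 15, and ENSBTAG00000049175, with 11, have no symbol in the table.

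The same pattern appeared when genes were grouped by the words of their deposited descriptions, a grouping chosen after values were seen. Homeobox genes had 920 low-methylated sites among 2175 (42.3%), in 154 of 182 genes, against 12.3% of the sites of all genes. GATA factor genes had 42.3%, paired box genes 36.6%, T-box genes 26.6% and SRY-box genes 21.3%. Ribosomal protein genes, which all cells use, had 18.1% and forkhead genes 17.9%. Below the level of all genes stood solute carriers (11.2%), zinc finger proteins (9.34%), adhesion receptors (7.35%), kinesins (5.03%) and collagen chains, with 16 of 874 sites (1.83%).

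**Figure D3:**
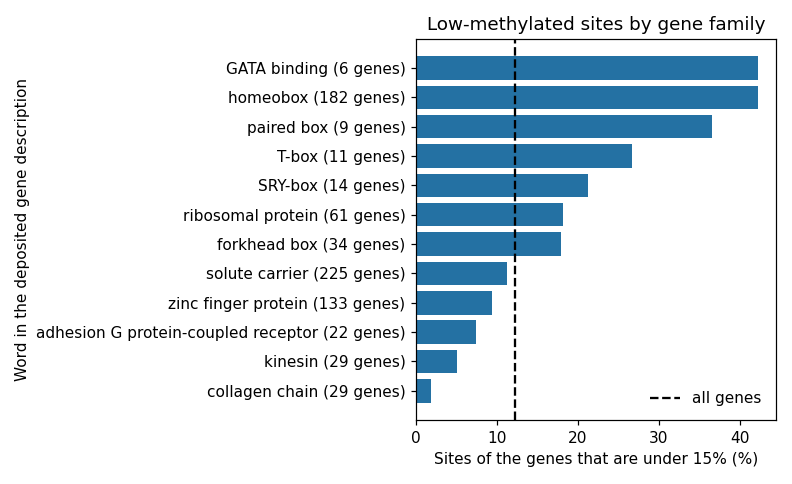
Percent of the table positions of each gene family that were low-methylated; families were formed from words in the deposited gene descriptions, and the number of genes stands in parentheses. The dashed line is the 12.3% of all genes. GATA and homeobox genes, at 42.3% each, are the highest and collagen chains, at 1.83%, the lowest.

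The HOX clusters, which pattern the body axis and the reproductive tract, differed among themselves. HOXC had 42 low-methylated sites of 84 and HOXD 34 of 66. HOXA had 31 of 157 and HOXB 19 of 93, and the medians over all their table positions were 23.98% and 27.4%, against 14.8% in HOXC and 14.4% in HOXD. Within HOXA, 12 of the 31 were in HOXA10, a gene needed for endometrial receptivity. Counted in windows of 100 kb, the HOXC window held 59 low-methylated sites, the window of EVX2 and HOXD 57 and that of HOXA 43.

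Gene lists gave a comparison by function. Of 39 developmental transcription factors in the table, 38 had a low-methylated site, with 288 of 636 sites (45.3%). GATA6 had 23 of 34, TBX3 22 of 62, EN2 19 of 22, NKX6-1 19 of 25 and LHX9 19 of 30. Of 26 listed housekeeping genes, 13 were in the table. They had 14 of 114 sites (12.3%), near the 12.3% of all genes, although 11 of the 13 held at least 1. SNRPD3 and SDHA held 42 and 20 of the 114 positions, with means over all of their positions of 86.3% and 89.8%, and weighed heavily on this share. Methionine cycle and one-carbon genes had 17 of 72 sites (23.6%) in 11 of 15 genes. MAT2A, which makes S-adenosylmethionine, was low at both of its positions (mean 9.0%), and AHCY, which clears the product of methylation, at its only one (12.2%). Chromatin and DNA methylation enzymes had 16 of 219 (7.31%), with 4 of 44 in DNMT3A, a methyltransferase that sets new methylation.

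Endometrial and hormone response genes had 59 of 745 sites (7.92%), in 22 of 28 genes, and 24 of the 59 were in IGF2. PTGFR, the receptor of prostaglandin F2 alpha, was low at both of its positions (6.13%). PTGS2, the inducible enzyme of prostaglandin synthesis, was low at its only position (7.15%). OXTR, the oxytocin receptor, had 2 of 4 and PGR, the progesterone receptor, 2 of 5. Among markers of cell types a brush can hold, epithelial genes had 8 of 48 sites in 4 of 8 genes, with all 4 of CDH1 (7.14%). Stromal genes had 7 of 30 in 2 of 5 genes, with all 5 of VIM (8.53%). Leukocyte genes had 15 of 203 in 3 of 9 genes, among them 5 of 7 in CD8A and 8 of 15 in LCK. Endothelial genes had 0 of 60 in 0 of 4 genes, and the rRNA family in the table had 0 of 32. Of all genes, 58.1% had a low-methylated site. Some markers of several cell types were thus low in the same libraries, while other markers of each type had no low-methylated site. The share of each cell type was not tested.

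Averaged over all 25042 sites, the libraries lay within 2 percentage points. The mean was 9.46%, 9.97%, 9.68% and 8.59% in CON_P libraries 14, 18, 26 and 30, and 8.39%, 8.85%, 10.2% and 9.03% in CON_noP libraries 12, 16, 24 and 28. It was 9.86%, 10.2%, 9.94% and 9.81% in MET_P libraries 15, 19, 27 and 31, and 9.30%, 8.94%, 10.1% and 10.1% in MET_noP libraries 13, 17, 25 and 29. The ranges of the groups overlapped in every pairing. The MET_P libraries were the closest together at these sites. The paper reports the most raw reads for this group, and whether depth bears on the spread was not tested.

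The mean of the CON_P libraries was 9.43% ± 0.593 and that of the CON_noP libraries 9.12% ± 0.770, while MET_P had 9.95% ± 0.179 and MET_noP 9.59% ± 0.565 (SD, n = 4). CON_P was 0.309 points above CON_noP and MET_P was 0.358 points above MET_noP, both less than the pooled standard deviations of 0.688 and 0.419. MET_P was 0.527 points above CON_P (pooled SD 0.438), and MET_noP 0.478 points above CON_noP (0.675). With each library centred on the same median M and turned back to percent, an alternative chosen after seeing the data, all 4 differences turned negative. They became -0.075, -0.013, -0.34 and -0.40 points in the same order, so the directions rest on the uncentred scale. Each group enters 2 of these comparisons, and none was tested, since the members were chosen with results of these data known.

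The library numbers form sets of consecutive numbers (12 to 15, 16 to 19, 24 to 27, 28 to 31) with 1 library of each group, and what a set shared is not stated. Within the sets in this order, on uncentred percentages, MET_P minus CON_P was 0.40, 0.24, 0.26 and 1.21 points. MET_noP minus CON_noP was 0.91, 0.10, -0.13 and 1.03, CON_P minus CON_noP was 1.07, 1.12, -0.52 and -0.44, and MET_P minus MET_noP was 0.56, 1.26, -0.13 and -0.26. Only the first of these differences had the same sign in all 4 sets. Other measures did not follow it set by set. The 13 mitochondrial sites of the table averaged 6.62% ± 0.826 in MET_P and 5.77% ± 0.532 in CON_P, and 5.32% in both noP groups. Within the sets their MET_P minus CON_P was 2.37, 1.38, -0.32 and -0.015 points. The other autosomal sites averaged 73.9% in MET_P and 73.6% in CON_P, with -0.70, -1.16, 1.34 and 1.49 within the sets. Each thus had the opposite sign in 2 of the 4 sets.

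**Figure D4:**
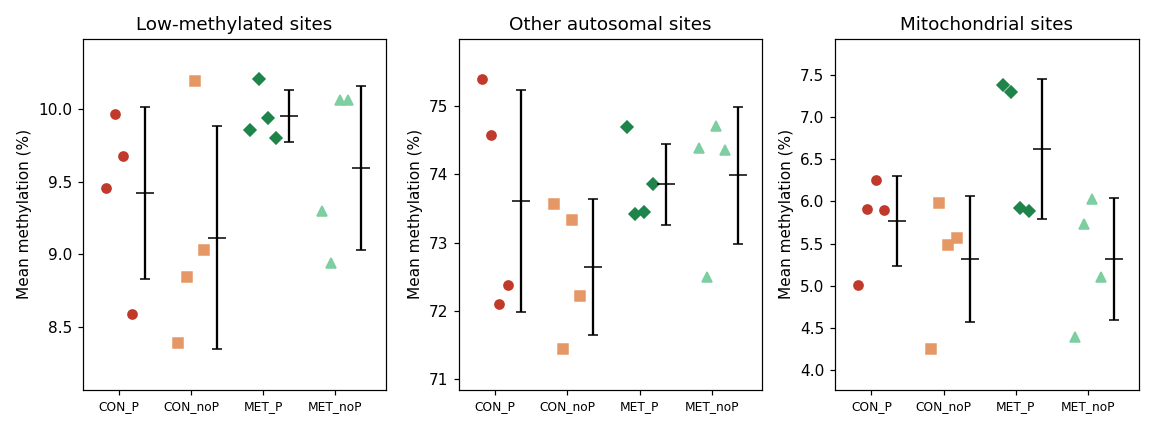
Mean methylation level of each library, in percent, over the low-methylated sites, the other autosomal sites and the 13 mitochondrial sites; points are libraries, the horizontal mark is the group mean and the bar its standard deviation (n = 4). The vertical axes do not start at 0. At the low-methylated sites the MET_P libraries lie between 9.81% and 10.2%, and the libraries of the other groups between 8.39% and 10.2%.

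Site by site, no low-methylated site passed in any comparison. Each site was tested with limma on M, the log2 ratio of the percent plus 1 to 100 minus the percent plus 1, and adjusted over all 199395 sites. The p-values set each group difference against the spread between libraries within groups, and say nothing of the spread between cows. Between CON_P and CON_noP, which asks whether endometrium differed by later pregnancy on the control diet, 0 of 25042 had an adjusted p under 0.05 (0% of all sites). At an unadjusted p under 0.05 there were 575 (2.3%), against 3.93% of all sites. They were 302 higher in CON_P (1.21%, against 2.53% of all sites) and 273 lower (1.09%, against 1.4%). Between MET_P and MET_noP, the same question under methionine, 0 passed (0% of all sites) and 877 (3.5%) had an unadjusted p under 0.05, against 5.12% of all sites. Here 564 were higher in MET_P (2.25%, against 2.57%) and 313 lower (1.25%, against 2.55%).

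The diet comparisons gave the same count of 0. For MET_P against CON_P (0% of all sites called), 821 low-methylated sites (3.28%) had an unadjusted p under 0.05, against 5.83% of all sites, 582 higher in MET_P (2.32%, against 3.06%) and 239 lower (0.954%, against 2.77%). For MET_noP against CON_noP (0% called), there were 713 (2.85%), against 5.13%, with 448 higher in MET_noP (1.79%, against 3.36%) and 265 lower (1.06%, against 1.77%). Over both diets, P against noP gave 0 after adjustment (0.000502% of all sites called) and 688 before it (3.89% of all sites), with 455 higher in P (1.82%, against 2.4%) and 233 lower (0.93%, against 1.49%). Over both outcomes, MET against CON gave 0 (0% called) and 878 before adjustment (6.05% of all sites), with 649 higher in MET (2.59%, against 3.84%) and 229 lower (0.914%, against 2.22%). The interaction of diet and outcome gave 0 (0.001% called) and 893 before adjustment (5.25% of all sites), 502 positive (2%, against 2.06%) and 391 negative (1.56%, against 3.19%). In all 7 comparisons the share of low-methylated sites was below that of all sites, in the fit without trend. With trend the unadjusted counts rose in each, from 821 to 1190 for MET_P against CON_P and from 878 to 1250 for MET against CON. The share of all sites was not computed for that fit.

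Among these unadjusted calls, the direction depended on the scale. MET_P was higher than CON_P at 70.9% of them and MET higher than CON over both outcomes at 73.9%. Centring every library on the same median M moved the whole table by 0.13 in both contrasts, and the shares became 43.9% and 34.7%. For MET_noP against CON_noP, with the same shift, 62.8% became 33.1%. For CON_P against CON_noP 52.5% became 41.1%, for MET_P against MET_noP 64.3% became 52.3%, and for P against noP 66.1% became 46.0%, with shifts of 0.06. The centred shares thus fell under 50% in all of these except MET_P against MET_noP. The shift is that of the library medians. It exceeded the median M difference over all sites, which was 0.0146 for MET_P against CON_P and 0.0601 for MET against CON. For CON_P against CON_noP that median difference, 0.102, was above the shift. How far the changed directions come from the centring itself was not tested.

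Groups that did not overlap were counted as well. MET_P lay wholly above CON_P at 568 low-methylated sites (2.27%, against 1.92% of all sites) and wholly below at 187 (0.747%, against 1.17%). MET_noP lay above CON_noP at 393 (1.57%, against 1.85%) and below at 285 (1.14%, against 0.903%). CON_P lay above CON_noP at 305 (1.22%, against 1.22%) and below at 324 (1.29%, against 0.77%). MET_P lay above MET_noP at 508 (2.03%, against 1.64%) and below at 236 (0.942%, against 1.26%). All but the lower count of CON_P were within 1.5 times the share of all sites or under it.

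The sites with the lowest p show how large the differences of few libraries were. At chr1:142931176 in PDE9A, which encodes a phosphodiesterase that degrades cyclic GMP, MET_P libraries read 17.6%, 16%, 14.8% and 18.6%. MET_noP libraries read 2.70%, 2.56%, 3.23% and 6.06%. The groups did not overlap, and M differed by 2.20 ± 0.40 (SE) with an adjusted p of 0.295 by limma. The CON groups at this site, 11.03% ± 2.10 and 9.85% ± 5.03 (SD, n = 4), lay between them.

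For MET_P against CON_P the lowest p was at chr3:58836069 in C3H1orf52. MET_P libraries read 2.04%, 3.66%, 3.57% and 1.47%, and CON_P libraries 10.7%, 14.3%, 10.7% and 15.2%. The groups were apart, M was lower in MET_P by -2.09 ± 0.42 and the adjusted p was 0.491. For MET_noP against CON_noP, and for the interaction, it was chr16:1243380 in PRELP, a gene of a matrix proteoglycan. MET_noP libraries read 23.7%, 15.6%, 38.5% and 27.6% and CON_noP libraries 5.13%, 3.7%, 6.67% and 1.89%, with adjusted p of 0.339 and, for the interaction, 0.807. CON_P at this site ranged from 6.52% to 25.9%.

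For CON_P against CON_noP the lowest p was at chr20:71326290, which has no gene. CON_P libraries read 11.1%, 20%, 20% and 14.3%, and CON_noP libraries 4.55%, 3.03%, 4.17% and 3.7%, with an adjusted p of 0.632. In the MET groups the same site read from 5.56% to 40%. Over both diets, P against noP had its lowest p at chr14:1658734, with no gene (adjusted p = 0.784). Over both outcomes, MET against CON had it at chr7:17113767 in ZNF414, a zinc finger gene (adjusted p = 0.790), where CON_P averaged 12.6% ± 1.40 and MET_P 5.16% ± 2.94 (SD, n = 4).

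Regions gave no call either. Of 26894 regions of at least 3 positions, 1768 averaged under 15%, 1075 of them with a gene. None had an adjusted p under 0.05 by limma in the 4 pairwise comparisons (0% of all regions in each). At an unadjusted p under 0.05 there were 15 for CON_P against CON_noP (3.56% of all regions), 39 for MET_P against MET_noP (5.11%), 32 for MET_P against CON_P (6.43%) and 31 for MET_noP against CON_noP (5.38%). These counts are 0.848%, 2.21%, 1.81% and 1.75% of the low regions, each below the share of all regions. MET_P lay wholly above CON_P in 70 low regions (3.96%, against 2.45% of all) and wholly below in 9 (0.509%, against 1.23%). For MET_noP against CON_noP the counts were 32 (1.81%, against 2.24%) and 17 (0.962%, against 0.982%). For CON_P against CON_noP they were 21 (1.19%, against 1.4%) and 14 (0.792%, against 0.744%), and for MET_P against MET_noP 47 (2.66%, against 1.84%) and 17 (0.962%, against 1.49%).

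The region with the lowest p between MET_P and CON_P was chr7:21266981-21267121 in LINGO3, with 6 positions. MET_P libraries read 34.98%, 18.04%, 11.2% and 21.5% and CON_P libraries 7.35%, 8.20%, 5.23% and 10.04%, with an adjusted p of 0.748. Between MET_P and MET_noP it was chr22:54204628-54204796 in ZDHHC3, a palmitoyltransferase gene, at 10.2% ± 1.26 against 4.63% ± 0.893 (SD, n = 4), adjusted p 0.893 by limma. Between MET_noP and CON_noP it was chr23:7586632-7586785 in PHF1, a gene of a Polycomb-associated protein, at 6.56% ± 1.54 against 12.8% ± 2.82 (SD, n = 4), adjusted p 0.828 by limma. Between CON_P and CON_noP it was chr25:29564120-29564170, with no gene, at 8.53% ± 2.21 against 16.3% ± 1.5 (SD, n = 4), adjusted p 1 by limma.

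Levels were also averaged over the low-methylated sites of a gene, which by construction lowers the spread between libraries. In the 20 genes with the most sites, the mean was higher in MET_P than in CON_P in 18 and higher in MET_noP than in CON_noP in 16. It was higher in CON_P than in CON_noP in 12 and higher in MET_P than in MET_noP in 10. Among all 193 genes with at least 10 such sites the shares were 70.5%, 77.7%, 64.2% and 52.3% in the same order. Over all 6047 genes with a low-methylated site they were 59.9%, 52.4%, 51.3% and 58.9%, so the large majority for MET_noP over CON_noP was not found over all of them. With M centred on the library median, the counts in the 20 genes were 12, 13, 7 and 8, so the majority for CON_P over CON_noP turned into a minority.

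IRX2 showed the pattern over 45 sites at chr20:70038629-70046291. MET_P libraries stood at 10.7%, 10.9%, 11.1% and 11.7% and MET_noP libraries at 10.96%, 9.67%, 11.2% and 10.6%. CON_P libraries stood at 9.72%, 10.04%, 10.53% and 9.03% and CON_noP libraries at 7.71%, 8.66%, 8.32% and 9.81%. MET_P lay above all CON_P libraries by a margin of under 1 point, while MET_noP and CON_noP overlapped, and on centred M values MET_P and CON_P overlapped too. No site of IRX2 passed the test. At an unadjusted p under 0.05, 1 of 45 was higher in MET_P than in CON_P and 0 lower, against 3.06% and 2.77% of all sites, and 3 were higher and 1 lower in MET_noP than in CON_noP, against 3.36% and 1.77%.

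**Figure D5:**
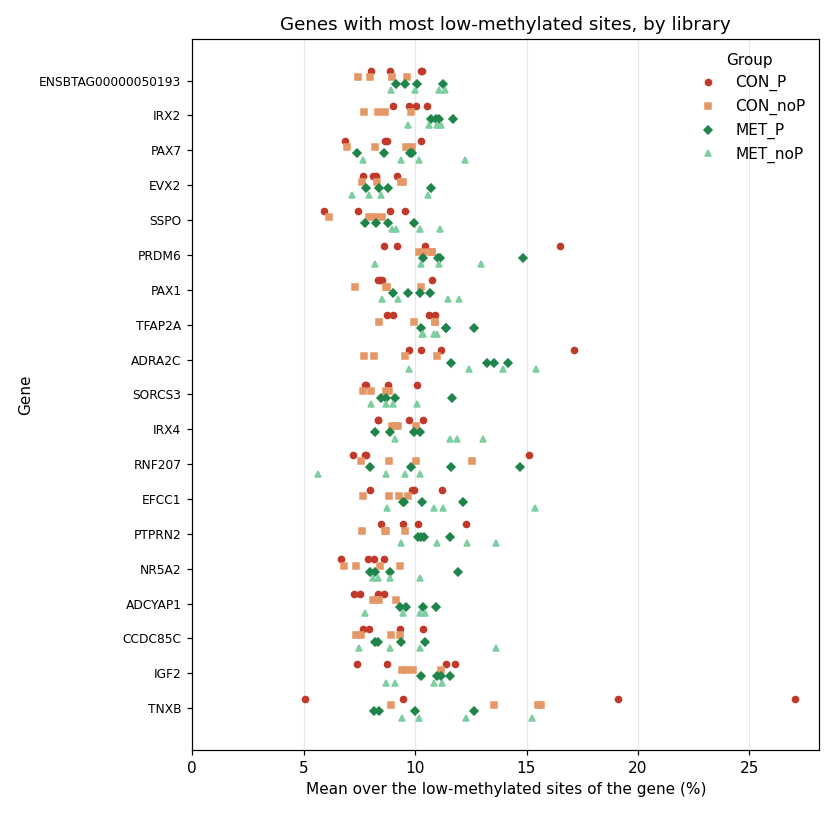
Mean methylation level, in percent, over the low-methylated sites of 19 of the 20 genes with the most such sites; each point is 1 library, coloured by group. Groups overlap in nearly every gene. IRX2 and ADCYAP1 have all MET_P libraries above all CON_P libraries, which on centred M values was no longer so, and TNXB spreads from 5.07% to 27.04% within CON_P.

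Of the 193 genes, 9 (4.66%) had all MET_P libraries above all CON_P libraries and 1 (0.518%) had them below. Over all 6047 genes with a low-methylated site the shares were 2.91% and 0.529%. Of these 6047 genes 3075 held 1 such site. Here and below, the shares of the 193 and of the 6047 thus rest on means over unlike numbers of sites. The 9 were IRX2, ADCYAP1, EN2, CDX2, AMN, AGAP1, CELF5, ENSBTAG00000051384 and ENSBTAG00000051680. ADCYAP1 stood at 10.9%, 10.4%, 9.31% and 9.59% in MET_P and 8.60%, 7.26%, 7.53% and 8.32% in CON_P. EN2, a homeobox gene of the midbrain, stood at 10.1%, 8.72%, 8.78% and 10.3% in MET_P and 6.75%, 7.4%, 8.47% and 7.48% in CON_P. On M values 7 of the 9 remained apart, and on centred M values 1 did, ENSBTAG00000051384, with the direction kept in all 9. CA9 was the gene below, at 7.81% ± 0.818 in MET_P and 11.8% ± 2.02 in CON_P (SD, n = 4), and it remained apart on both scales.

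MET_noP against CON_noP had 9 genes above (4.66%) and 1 below (0.518%), against 1.46% and 1.44% of all 6047, many of them with fewer sites per mean. SSPO stood at 9.17%, 8.96%, 11.1% and 10.2% in MET_noP and 8.52%, 7.91%, 6.12% and 8.18% in CON_noP. The others above were SIX6 and SOX14, which are developmental factors, GRM4, a glutamate receptor gene, TNFRSF12A, the stress protein gene HSPA1A, AJM1, ENSBTAG00000054384 and ENSBTAG00000055216. On centred M values 1 of the 9, AJM1, remained apart. The homeobox gene EMX1 was below, at 7.30% ± 0.144 against 8.21% ± 0.748 (SD, n = 4), and remained apart.

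By outcome, few of the 193 genes were apart. CON_P lay above CON_noP in WNT7B and ENSBTAG00000054384 (1.04%) and below in ELAVL3 (0.518%), against 1.01% and 1.42% of all 6047 genes. MET_P lay above MET_noP in DDX25 (0.518%) and below in 0 genes (0%), against 2.48% and 0.695%. WNT7B, which encodes a secreted signal, stood at 14.4% ± 2.15 in CON_P and 10.3% ± 1.26 in CON_noP (SD, n = 4). DDX25 stood at 10.8% ± 1.24 in MET_P and 8.34% ± 0.881 in MET_noP (SD, n = 4). None of the 4 remained apart on centred M values.

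In the lists, PGR was the member apart by outcome in both diets. Its 2 low-methylated sites, chr15:7855062 and chr15:7855718, averaged 10%, 19.1%, 10.4% and 8.51% in CON_P and 7.81%, 7.77%, 6.73% and 6.41% in CON_noP. They averaged 9.75%, 8.32%, 9.53% and 7.66% in MET_P and 3.59%, 4.93%, 4.86% and 7.38% in MET_noP. Every P library was above every noP library of its diet. On M values, centred or not, it remained so.

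Neither PGR site passed the test. Over both diets M was higher in P by 0.72 ± 0.36 at the first site and by 0.82 ± 0.30 at the second (SE), with an adjusted p of 1 by limma for each. Over the 6047 genes with a low-methylated site, 61 (1.01%) lay wholly higher in CON_P than in CON_noP and 150 (2.48%) wholly higher in MET_P than in MET_noP. Both held in 3 genes (0.0496%), PGR, SMAGP and RBM18, of which the last pair was named after values were seen, and the reverse in both diets held in 0. SMAGP, with 2 sites, stood at 12.1% ± 1.56 and 8.58% ± 1.55 in CON_P and CON_noP and at 11.9% ± 0.345 and 8.67% ± 0.810 in MET_P and MET_noP (SD, n = 4). On centred M values SMAGP and RBM18 overlapped in at least 1 diet.

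HOXA10 gave no such separation. Over its 12 sites at chr4:68866568-68869657, CON_P libraries stood at 9.55%, 10.4%, 9.01% and 7.94% and CON_noP libraries at 9.63%, 6.70%, 8.77% and 10.6%. MET_P libraries stood at 7.96%, 12.4%, 7.43% and 8.85% and MET_noP libraries at 6.88%, 8.98%, 6.13% and 9.07%. The groups overlapped in each pairing. IGF2 and GATA6 overlapped likewise. Among developmental transcription factors, 34 of 38 had a higher mean in MET_noP than in CON_noP, against 52.4% of all 6047 genes, and 21 of 38 in MET_P than in CON_P, against 59.9%. CON_P was higher than CON_noP in 28 of 38, against 51.3%, and MET_P higher than MET_noP in 19 of 38, against 58.9%. Among the 193 genes with at least 10 sites the shares were 77.7%, 70.5%, 64.2% and 52.3% in the same order. On centred M values the counts out of 38 were 18, 17, 20 and 17 in the same order, so the diet majorities did not hold on that scale. Of the 38, 3 lay wholly higher in MET_P than in CON_P and 0 wholly lower, against 2.91% and 0.529% of all 6047 genes. They were EMX2, EN2 and MSX1, with 2, 19 and 1 low-methylated sites. EMX2 and MSX1 were apart on centred M values too. Of the 288 sites of the list, 0 passed in any comparison. At an unadjusted p under 0.05, 12 were higher and 1 lower in MET_P than in CON_P, against 3.06% and 2.77% of all sites. For MET_noP against CON_noP 4 of the 288 were higher and 1 lower, against 3.36% and 1.77% of all sites. For MET_P against MET_noP the counts were 5 and 5, against 2.57% and 2.55%, and for CON_P against CON_noP 4 and 2, against 2.53% and 1.4%.

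Genes of the methionine cycle, whose substrate the MET cows received, showed no group apart. Of the 11 with a low-methylated site, 5 had a higher mean in MET_P than in CON_P and 6 in MET_noP than in CON_noP (4 and 5 on centred M values), and 0 of their 17 sites passed. MAT2A stood at 9.47%, 9.78%, 11.8% and 10.03% in MET_P and 7.19%, 9.06%, 10.9% and 7.86% in CON_P. AHCY, at its only position, ranged from 7.14% to 40% in MET_noP and from 3.45% to 17.4% in CON_noP. For chromatin enzymes, housekeeping genes and the markers of epithelium, stroma and leukocytes, no gene was apart in any of the 4 pairwise comparisons, and 0 of their 16, 14, 8, 7 and 15 sites passed.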

How the data were processed

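Endometrial brush samples in 16 RRBS libraries, 4 each of CON_P, CON_noP, MET_P and MET_noP, were analysed. Per the labels and the study's methods, the authors used Trim Galore for trimming, Bismark for alignment (build ARS-UCD1.2), SAMtools for merging and SeqMonk for positions with at least 10 reads. They deposited the percent methylation of each position and library, without normalization between libraries, after discarding positions with a zero or missing value. Columns were assigned to groups by the group names above them. Read counts were not used here, so the authors' logistic regression could not be run.

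Percentages were transformed to M = log2((percent + 1)/(100 - percent + 1)), a difference of M being on this log2 scale. Every site of the table, and every region of at least 3 sites spaced by at most 200 bp, was tested with limma 3.58.1 in R 4.3.3 (with the data.table package, version 1.17.8), without trend, with the 8 libraries of the groups compared or, for contrasts over 4 groups, all 16. P-values were adjusted by Benjamini-Hochberg over all sites or regions, with a threshold of 0.05. The fit was tested on simulated data. Summaries and figures used Python 3.11.15 with numpy 2.4.6, pandas 2.3.3 and matplotlib 3.10.9.

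Named were the 20 genes with the most low-methylated sites, the 10 largest clusters, the 10 largest genes with only low-methylated sites, the 3 lowest sites, the 3 on each side of the limit, the site and region with the lowest p in each comparison, and members of the gene lists (housekeeping, chromatin, methionine cycle, developmental transcription factors, rRNA, endometrial, and markers of 4 cell types). Gene families, HOX counts, windows and genes whose group means did not overlap were chosen after values were seen. The members and lists were chosen with earlier results of these data known. The alternatives tried were untransformed percentages, an offset of 0.1, moderation with trend, centred libraries, adjustment over sites under 50%, limits of 10% and 20%, other gaps and region sizes, all libraries in 1 model, sets of library numbers as a block, and each library left out in turn. Centred means and gene counts were added after seeing the data. Gene symbols were found in RefSeq's gene list for 5502 of 6047 genes, and none of its coordinates were used. No genome was used, so no sequence is shown. The values of 1 of the 20 genes, and of its site just over the limit, are not reported here.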

Additional observations from a re-analysis of the deposited data

Results flagged for a closer look

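In 6 of 176 groups of 4 libraries examined for the named genes, clusters, sites and regions (3.41%), 1 library stood far from the other 3 relative to the whole range, by Dixon's criterion, which chance meets in about 1 in 20 groups. All 6 were the highest of their group. In PAX1, CON_P library 26 stood at 10.8%, against 8.35% to 8.51% in the others. In RNF207, CON_P library 14 stood at 15.1% over the gene, against 7.21% to 7.81%, and at 16.99% over its cluster on chromosome 16, against 7.39% to 8.20%. The SCARF1 cluster stood at 28.8% in CON_P library 18, against 6.39% to 8.43%. The site chr14:1658734, which had the lowest p for P against noP, stood at 8.33% in MET_noP library 29, against 3.23% to 4.08%. The ZDHHC3 region stood at 9.48% in CON_noP library 24, against 5.51% to 6.12%.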

How the results depend on the processing

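The counts of 0 low-methylated sites and 0 low regions past the threshold held under all 184 alternatives of these counts, with a lowest adjusted p of 0.203 for sites and 0.220 for regions. Of 442 alternatives over 32 results, 438 were labelled unchanged. Counts had to stay within a set ratio, and lowest-p sites and regions had to keep their sign and side of the threshold. Differences of the mean had to move by less than the pooled standard deviation, so they could change sign and still be labelled unchanged. Many results were counts of 0 or adjusted p far above the threshold, so the 438 is no measure of robustness. With a limit of 10% in place of 15%, 15087 sites were members, by construction. After centring all libraries to 1 common median of M and turning them back to percent, an alternative chosen after seeing the data, all 4 differences of the mean turned negative, to -0.335 points for MET_P minus CON_P, -0.397 for MET_noP minus CON_noP, -0.0753 for CON_P minus CON_noP and -0.0131 for MET_P minus MET_noP. With the median over sites in place of the mean, CON_P minus CON_noP was -0.0553. On centred M values CON_P was above CON_noP in 7 of the 20 genes with the most sites in place of 12. The cause of these changes was not tested. Leaving out each library in turn gave 24786 to 25310 members. It moved the difference of the mean from 0.0662 to 0.670 points for CON_P minus CON_noP, 0.142 to 0.516 for MET_P minus MET_noP, 0.249 to 0.709 for MET_P minus CON_P and 0.235 to 0.838 for MET_noP minus CON_noP. No paired analysis was possible because the columns carry no replicate numbers of the labels. With the sets of consecutive library numbers as a replicate block, 0 low-methylated sites passed in all 7 comparisons, and deviations of libraries of 1 set correlated between -0.044 and 0.085. Unknown depth limits what a percentage near 15% shows about a site.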

Other observations

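Low-methylated sites were spread over the genome, in 6614 of the 12476 windows of 100 kb with a table position, and 535 windows held at least 10. Their share of autosomal positions ran from 8.62% on chromosome 22 to 20.2% on chromosome 10. Beyond the HOX clusters, the windows with the most were those of ENSBTAG00000050193 on chromosome 12 (66 sites), IRX2 on chromosome 20 (57), HMX1 on chromosome 6 (51), EBF3 on chromosome 26 (46), NKX3-2 on chromosome 6 (45), TFAP2A on chromosome 23 (44) and EN2 with CNPY1 on chromosome 4 (43). EBF3 encodes a developmental factor of neurons and muscle. In the EN2 window MET_P stood at 9.99% ± 0.239, CON_P at 8.58% ± 0.639, MET_noP at 9.72% ± 0.757 and CON_noP at 9.21% ± 0.619 (SD, n = 4). Differences between windows or groups were not tested here. In EN2 itself, MET_P and CON_P overlapped on M values, centred or not.

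The library in which a low-methylated site was highest was not evenly spread. CON_P library 18 was the highest at 9.02% of the sites and CON_noP library 28 at 3.37%. Values over 30% were found at 301 of these sites in MET_noP library 25 and at 283 in CON_P library 14, against 22 in CON_noP library 28. At the UPP1 site with a mean of 2.17%, all CON_P libraries read from 1.02% to 1.63% and all MET_P libraries from 2.78% to 3.54%, with an adjusted p of 0.827 by limma. These values lie near the floor of the measurement, where incomplete conversion also counts as methylation.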
